A study of Saccharomyces cerevisiae with 10 samples.

Results

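The 10 genes described here encode the core enzymes that make and break glycogen and trehalose in *Saccharomyces cerevisiae*, and were taken by name from every deposited table of an RNA sequencing study of the histone H3 lysine-4 demethylase gene *JHD2*. All 10 were found in each table, out of 7041 features in the largest. Glycogen synthesis was represented by *GLG1* and *GLG2*, *GSY1* and *GSY2*, and *GLC3*, glycogen breakdown by *GPH1* and *GDB1*, and trehalose synthesis by *TPS1*, *TPS2* and *TSL1*. Cells deleted for *JHD2* (*jhd2∆*) were set against wild type (WT) in YAD (ammonium and glucose), in YGD (glutamate and glucose) and in YAR (ammonium and raffinose). Cells carrying a multicopy plasmid with *JHD2* behind the constitutive *ADH1* promoter (OE) were set against cells with the empty vector (EV) in YAR and in YAD, and EV cells in YAR were set against EV cells in YAD. All strains are labelled BY4742. The labels give *jhd2∆* as Mat a and WT as Mat alpha in YAD and YGD, so that loss of *JHD2* and mating type cannot be told apart there, both genotypes as Mat a in YAR, and the EV and OE strains as Mat alpha. The *jhd2∆* and WT groups had 3 replicate cultures each in YAD and YGD and 2 each in YAR, EV and OE had 3 each in YAR, and the other comparisons have only 1 deposited value per group.

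Glycogen is a branched glucose polymer begun by self-glucosylating glycogenins, extended from UDP-glucose by glycogen synthase and branched by a dedicated enzyme, and it is broken down by a phosphorylase and a debranching enzyme. Trehalose is a disaccharide made from the same UDP-glucose and from glucose 6-phosphate by a complex that holds a synthase, a phosphatase and regulatory subunits. Yeast accumulates both carbohydrates when glucose runs low, when growth slows or under stress, and many of the genes carry stress response elements, which are the binding sites of the transcription factors Msn2 and Msn4.

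Values are FPKM, that is, read numbers divided by the length of the transcript and by the size of the library, so that levels may be compared between genes within a library. Differences between groups were tested with limma on log2(scaled FPKM + 1), where each library was scaled to the median ratio of its features, and a gene was called when its Benjamini-Hochberg adjusted p over all features was under 0.05 and its fold was over 1.4. FPKM sums ranged from 818862 to 1610620 per library. *JHD2* itself followed the genotype labels, with 0 FPKM in both *jhd2∆* libraries in YAR against 17.5 and 14.1 FPKM in WT, and 1503 to 2213 FPKM in OE against 27.6 to 35.8 FPKM in EV. The mating-type markers followed the labels in the *jhd2∆* and WT libraries but not in all of the EV and OE libraries. In the overexpression table the summed FPKM of 7 a-specific genes was 2756, 2307 and 751 in OE replicates 1 to 3 and 6022, 3733 and 434 in EV replicates 1 to 3, while that of 5 alpha-specific genes was 118, 110 and 585 in OE and 74.7, 93.3 and 1572 in EV. Only EV replicate 3 thus had more alpha-specific than a-specific RNA, which is what the Mat alpha label of EV and OE gives, and OE replicate 3 held both. EV replicate 3 also correlated least with the other EV libraries (r of 0.914 and 0.924, against 0.953 between EV replicates 1 and 2). Fitted differences and correlations that rest on EV replicate 3 are therefore given with and without it. Leaving it out keeps EV replicates 1 and 2, whose markers go against the label, so the values without it are not a sounder baseline. The deposited EV group value in YAR cannot be divided by replicate.

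The regions upstream of the start codons are shown first because most of the 10 genes share the stress response element in them. The element was searched for as AGGGG on both strands, in the bases beyond 200 and up to 500 before each start codon in the R64 genome, and 8 of the 10 genes held at least 1 copy, against 22.4% of 6006 genes. At least 2 copies were found for 6 of the 10, against 3.78% of all genes. *TPS1* had 6 copies, *TPS2* had 4, *GLC3* and *TSL1* had 3 each, *GSY1* and *GPH1* had 2 each, *GSY2* and *GLG2* had 1 each, and *GLG1* and *GDB1* had none in this window. Within 600 bases of the start codon, 9 of the 10 genes held a copy, against 39.7% of 6005 genes, and 8 held at least 2, against 10.8%. A match is a description of the letters and does not show that a factor binds there. Below are the windows of *TPS1* (chrII:490593-490892, minus strand), *TPS2* (chrIV:593393-593692, plus strand), *GSY2* (chrXII:660216-660515, plus strand), *GLC3* (chrV:132720-132919, plus strand, up to 400 bases upstream) and *GPH1* (chrXVI:860806-861105, plus strand), written toward the gene with the element in capitals on either strand. The *TPS1* window overlaps the annotated small gene *MEO1* on the opposite strand. Among the windows that were counted but are not shown, those of *TSL1*, *GLG2* and *GDB1* also overlap annotated genes (*YML100W-A*, *RPS21B* and *DPM1*). *TPS1* and *TPS2* are shown for having the most copies in this window, *GSY2* as the main glycogen synthase gene, and *GLC3* and *GPH1* as the genes that passed the test in YAR. *GSY2* has a single copy in its window and a further one outside it, at 196 to 192 bases upstream.
TPS1: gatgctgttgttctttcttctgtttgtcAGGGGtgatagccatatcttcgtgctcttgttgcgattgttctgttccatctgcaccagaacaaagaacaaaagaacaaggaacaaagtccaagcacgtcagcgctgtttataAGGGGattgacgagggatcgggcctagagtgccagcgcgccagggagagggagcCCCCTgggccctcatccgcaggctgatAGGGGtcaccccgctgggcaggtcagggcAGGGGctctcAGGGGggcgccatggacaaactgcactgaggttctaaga
TPS2: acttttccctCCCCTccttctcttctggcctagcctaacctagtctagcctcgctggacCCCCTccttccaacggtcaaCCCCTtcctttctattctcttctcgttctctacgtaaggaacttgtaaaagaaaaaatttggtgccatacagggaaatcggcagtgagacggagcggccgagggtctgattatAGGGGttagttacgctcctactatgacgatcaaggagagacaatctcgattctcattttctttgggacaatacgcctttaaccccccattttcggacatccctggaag
GSY2: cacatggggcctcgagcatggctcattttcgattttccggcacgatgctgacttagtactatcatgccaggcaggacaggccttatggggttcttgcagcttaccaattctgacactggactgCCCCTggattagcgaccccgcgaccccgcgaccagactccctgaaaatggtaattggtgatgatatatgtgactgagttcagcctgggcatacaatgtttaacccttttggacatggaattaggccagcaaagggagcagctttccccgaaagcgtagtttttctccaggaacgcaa
GLC3: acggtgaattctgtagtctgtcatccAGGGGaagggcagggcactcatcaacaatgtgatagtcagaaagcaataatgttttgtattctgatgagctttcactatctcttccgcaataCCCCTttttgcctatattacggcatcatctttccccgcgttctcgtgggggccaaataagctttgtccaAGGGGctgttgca
GPH1: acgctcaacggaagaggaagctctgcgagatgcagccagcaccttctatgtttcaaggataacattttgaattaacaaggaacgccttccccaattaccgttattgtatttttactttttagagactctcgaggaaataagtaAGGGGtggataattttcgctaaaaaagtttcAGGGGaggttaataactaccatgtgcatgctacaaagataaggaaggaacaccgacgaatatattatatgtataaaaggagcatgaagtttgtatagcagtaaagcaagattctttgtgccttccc

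In YAR, *jhd2∆* cells had higher *GPH1* (YPR160W, chrXVI:861306-864014), which encodes glycogen phosphorylase, and higher *GLC3* (YEL011W, chrV:133120-135234), which encodes the glycogen branching enzyme. *GPH1* stood at 1504 and 1094 FPKM in *jhd2∆*, against 763 and 662 FPKM in WT, and rose by 0.85 on the log2 scale (SE 0.230, 95% interval 0.36 to 1.34, limma adjusted p = 0.0162). *GLC3* stood at 781 and 691 FPKM in *jhd2∆*, against 493 and 389 FPKM in WT, and rose by 0.75 (SE 0.217, limma adjusted p = 0.0226). For both genes each *jhd2∆* library lay above both WT libraries, as it did for 31.9% of all features, and no other of the 10 genes was called. These 2 of 10 called compare with 22.5% of the 5846 features tested (13.9% called higher and 8.57% lower), so the share of the 10 genes called was close to that of features in general. In WT, *GPH1* and *TPS1* overlapped at the top of the 10 levels, with *TPS1* at 668 and 662 FPKM, whereas in *jhd2∆* *GPH1* alone was highest, above *TPS1* at 946 and 715 FPKM.

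The other glycogen synthesis genes and the debranching enzyme gene were not called in YAR. *GSY1*, the minor glycogen synthase isoform, had 215 and 223 FPKM in *jhd2∆* against 166 and 155 FPKM in WT, a log2 difference of 0.45 (SE 0.185) that passed at an unadjusted p of 0.0272 but not after adjustment (limma adjusted p = 0.0913). *GSY2*, the major isoform, had 762 and 686 FPKM in *jhd2∆* and 631 and 556 FPKM in WT (log2 difference 0.29, limma adjusted p = 0.355). For both synthase genes each *jhd2∆* library lay above both WT libraries, as it did for 31.9% of all features. *GLG2*, a glycogenin, had 18.6 and 12.96 FPKM in *jhd2∆* against 20.3 and 19.9 FPKM in WT (log2 difference -0.35, limma adjusted p = 0.235). The other glycogenin, *GLG1*, overlapped at 54.9 and 64.3 FPKM in *jhd2∆* and 58.6 and 68.9 FPKM in WT. *GDB1*, the debranching enzyme, also overlapped, at 340 and 273 FPKM in *jhd2∆* and 278 and 259 FPKM in WT.

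The trehalose genes did not pass the test in YAR. *TPS1*, the trehalose-6-phosphate synthase, differed by 0.31 on the log2 scale (limma adjusted p = 0.345) and *TSL1*, a regulatory subunit of the complex with 318 and 249 FPKM in *jhd2∆* against 226 and 234 FPKM in WT, by 0.29 (limma adjusted p = 0.327). *TPS2*, the trehalose-6-phosphate phosphatase, overlapped between the genotypes at 194 and 131 FPKM in *jhd2∆* and 140 and 143 FPKM in WT. In *jhd2∆*, replicate 1 was the higher library for 8 of the 10 genes, and the spread of *GDB1* and *TPS2* was 47.3 and 44.3 FPKM in *jhd2∆* against 13.4 and 2.04 FPKM in WT (SD, n = 2 each). All *jhd2∆* libraries lay above all WT libraries for 6 of the 10 genes (*GSY1*, *GSY2*, *GLC3*, *GPH1*, *TPS1* and *TSL1*) and below them for *GLG2*, where 31.9% and 32.3% of all features did so in the 2 directions. The median log2 difference of the 10 genes was 0.29, against -0.01 over all features tested, with 8 of the 10 above 0, where 48.9% of features were.

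**Figure D1:**
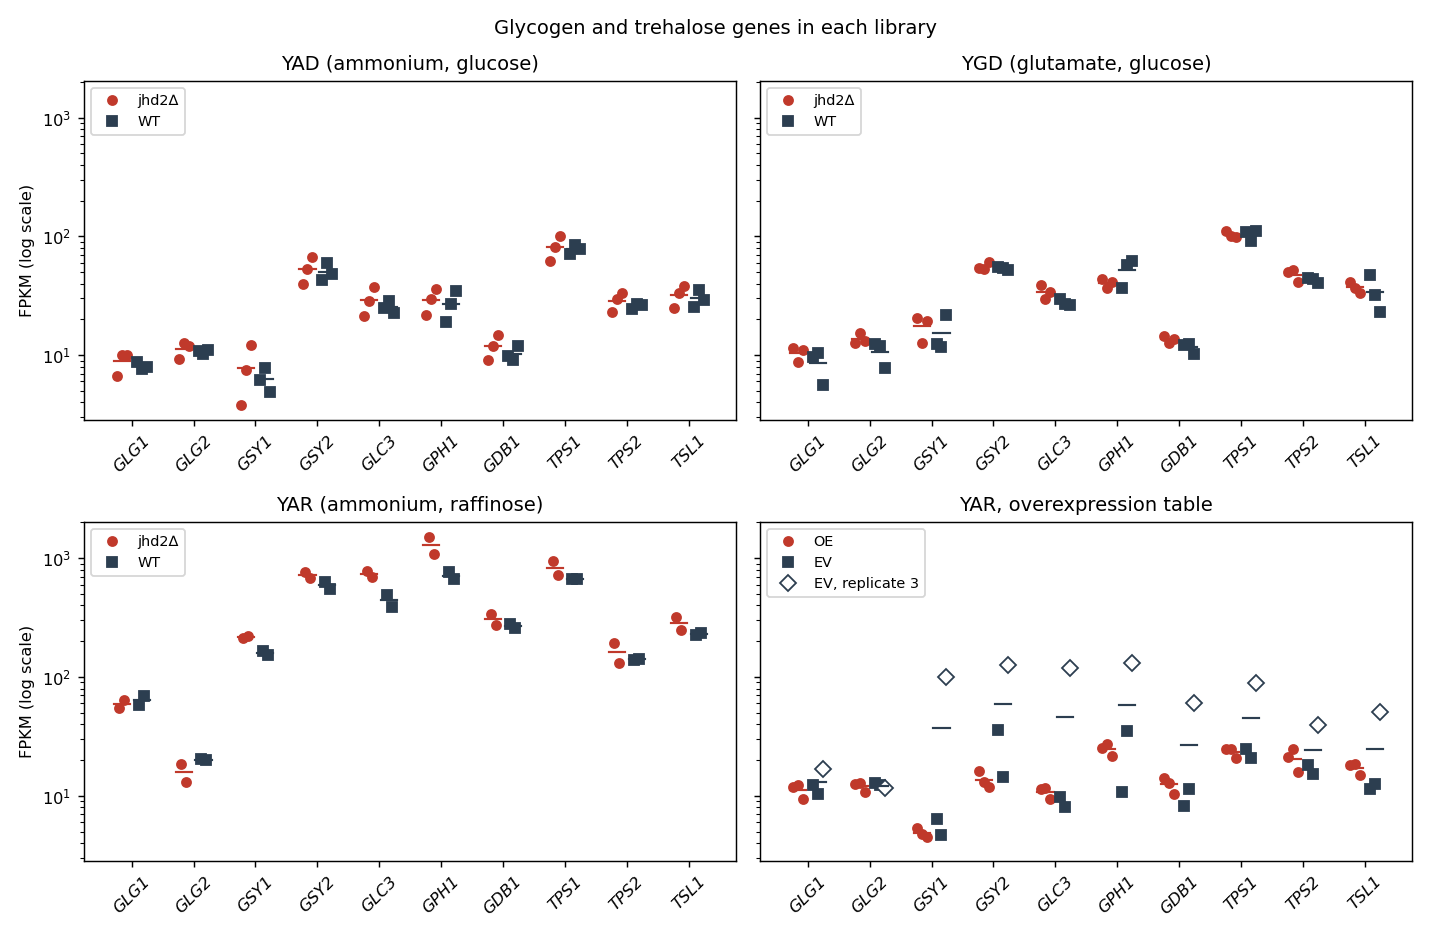
FPKM on a log axis for the 10 genes in every library of the 4 tables with replicate columns, with *jhd2∆* (or OE) as red circles to the left of WT (or EV) as dark squares, short lines for group means, and EV replicate 3 as open diamonds. In YAR, *GSY1*, *GSY2*, *GLC3*, *GPH1*, *TPS1* and *TSL1* are higher in every *jhd2∆* library and *GLG2* is lower. In that medium 31.9% and 32.3% of all features were separated in these directions. EV replicate 3 lies above the other EV libraries for 9 of the 10 genes, as it does for 1668 of 6331 features. The tables were normalised separately, so heights are not to be compared between panels.

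The calls in YAR depended on single libraries, on the scaling and on the options of the fit. Leaving out WT replicate 1, WT replicate 2 or *jhd2∆* replicate 1 left 0 of the 10 genes called by limma, and leaving out *jhd2∆* replicate 2 left both, with log2 differences over the 4 omissions of 0.63 to 1.08 for *GPH1* and 0.58 to 0.91 for *GLC3*. FPKM sums were higher in *jhd2∆* (1077310 and 1058790) than in WT (857216 and 818862), and dividing each library by its sum put the median of all features at -0.35, *GPH1* at 0.50 and *GLC3* at 0.40, and the median of the 10 genes at -0.06. Under that scaling 362 features were called higher and 1746 lower, in place of 813 and 501, and among the 10 genes *GLG2* alone was called, at -0.68 (limma adjusted p = 0.0276). Quantile normalization left 0 of the 10 called by limma, with *GPH1* at 0.30, *GLC3* at 0.26 and the median of the 10 at -0.08 against -0.04 over all features. The sign of *GSY2*, *GDB1*, *TPS1*, *TPS2* and *TSL1* was negative under both of these scalings. Without the trend and robust options of limma neither gene was called, with adjusted p = 0.0684 for *GPH1* and 0.0692 for *GLC3*, and 7.1% of features were called in place of 22.5%.

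Other genes of the pathways in YAR were counted from lists of their neighbours in metabolism and control, and the counts are to be read against the 13.9% of features called higher and 8.57% called lower. Of 4 further trehalose genes, *TPS3*, a regulatory subunit like *TSL1*, was the one called, with 121 and 97.7 FPKM in *jhd2∆* against 79.8 and 67.2 FPKM in WT (log2 difference 0.56, limma adjusted p = 0.0388). Of 6 genes that supply sugar phosphates and UDP-glucose, *UGP1*, which makes UDP-glucose, was called higher, with 793 and 652 FPKM in *jhd2∆* against 502 and 419 FPKM in WT (log2 difference 0.65, limma adjusted p = 0.0422), and all 6 were above 0 with a median of 0.53 (5 of 6 and 0.18 when libraries were divided by FPKM sums, 4 of 6 and 0.03 with quantile normalization). Of 12 regulators of glycogen, 2 fell and none rose. *GAC1*, a subunit that directs the protein phosphatase Glc7 to glycogen synthase, had 25.3 and 23.9 FPKM in *jhd2∆* against 40.8 and 41.2 FPKM in WT, and *GLC8*, another Glc7 regulator, had 57.3 and 57.7 FPKM in *jhd2∆* against 88.9 and 122 FPKM in WT (log2 differences -0.71 and -0.84, limma adjusted p = 0.00843 and 0.00589). Neither the 5 stress and carbon regulators nor the 12 other stress genes had a member called, and their medians were -0.29 and 0.22. *TPS3* and *UGP1* lost their calls without WT replicate 1, WT replicate 2 or *jhd2∆* replicate 1 (log2 differences over the omissions of 0.42 to 0.71 and 0.52 to 0.79) and when libraries were divided by FPKM sums, and *GAC1* and *GLC8* lost theirs without WT replicate 1 or WT replicate 2 (-0.74 to -0.68 and -1.07 to -0.61). All 4 lost their calls without the trend and robust options (limma adjusted p between 0.0534 and 0.116).

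In YAD none of the 10 genes was called, against 5.69% of 6185 features tested by limma (1.63% higher and 4.06% lower), and none passed at an unadjusted p of 0.05, which 1768 features did. The genotypes overlapped for all 10 genes, where 8.75% of all features had every *jhd2∆* library above WT and 20.8% below. *TPS1* was the most abundant at 62.2, 81.8 and 100.0 FPKM in *jhd2∆* and 70.7, 85.1 and 77.9 FPKM in WT, and *GSY1* the least at 3.82, 7.49 and 12.2 FPKM in *jhd2∆* and 6.17, 7.74 and 4.93 FPKM in WT. Both show the same spread inside the mutant group, in which replicate 1 was the lowest library for all 10 genes and replicate 3 the highest for 8. Behind *TPS1* came *GSY2* at 53.4 ± 13.5 FPKM in *jhd2∆* and 50.2 ± 8.59 FPKM in WT (SD, n = 3 each). Then came *TSL1*, *GPH1*, *GLC3* and *TPS2*, with group means of 28.6 to 32.2 FPKM in *jhd2∆* and 25.3 to 30.0 FPKM in WT. Within every YAD library *TSL1* lay above both *GLC3* and *TPS2*, and differences between genes were not tested. *GDB1*, *GLG2* and *GLG1* were lower, at 8.88 to 11.9 FPKM in *jhd2∆* and 8.15 to 10.7 FPKM in WT. All 10 log2 differences were above 0, between 0.09 (*TPS1*) and 0.23 (*GDB1*), with a median of 0.16 against 0.01 over all features, 51.2% of which were above 0, and every 95% interval of the 10 included 0. Leaving out *jhd2∆* replicate 3 lowered the median to 0.06 and leaving out *jhd2∆* replicate 1 raised it to 0.26, with 0 of the 10 called by limma in either case. Among the other genes of the pathway lists, *YAK1* was the one called in YAD.

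In YGD, with glutamate as the nitrogen source, none of the 10 genes was called by limma, against 0.338% of 6213 features (0.193% higher and 0.145% lower), and none passed at an unadjusted p of 0.05, which 419 features did. *GPH1* had the largest difference, with 43.9, 36.4 and 41.2 FPKM in *jhd2∆* against 37.1, 57.2 and 62.3 FPKM in WT (log2 difference -0.56, 95% interval -1.48 to 0.37, limma adjusted p = 0.797). Without WT replicate 1 its difference was -0.92 and without WT replicate 3 it was -0.13. The 2 higher WT libraries lay above all *jhd2∆* libraries and the lowest did not. *GLC3*, at 39.3, 29.6 and 33.9 FPKM in *jhd2∆* and 29.6, 26.8 and 26.3 FPKM in WT, *GLG2* and *GDB1* had every *jhd2∆* library above WT in the deposited values, as 9.5% of features did. Their fitted differences were 0.07, 0.14 and -0.002 on scaled values, for which WT replicate 3 was multiplied by 1.59. *TPS1*, the most abundant of the 10, had 111, 101 and 98.8 FPKM in *jhd2∆* and 108, 90.9 and 111 FPKM in WT. *GSY2* came next, at 53.0 to 60.5 FPKM in *jhd2∆* and 52.1 to 54.9 FPKM in WT. *TPS2* (41.2 to 51.6 FPKM in *jhd2∆*, 40.8 to 44.8 FPKM in WT), *GSY1* (12.7 to 20.7 FPKM in *jhd2∆*, 11.7 to 21.8 FPKM in WT) and *GLG1* (8.75 to 11.4 FPKM in *jhd2∆*, 5.61 to 10.3 FPKM in WT) overlapped between the genotypes, as *TPS1*, *GSY2* and *TSL1* did. The median of the 10 differences was -0.02, against -0.002 over all features, with 3 of the 10 above 0 where 49.7% of features were, and 0.14 without WT replicate 3, again with 0 called by limma. No gene of the other pathway lists was called in YGD.

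**Figure D2:**
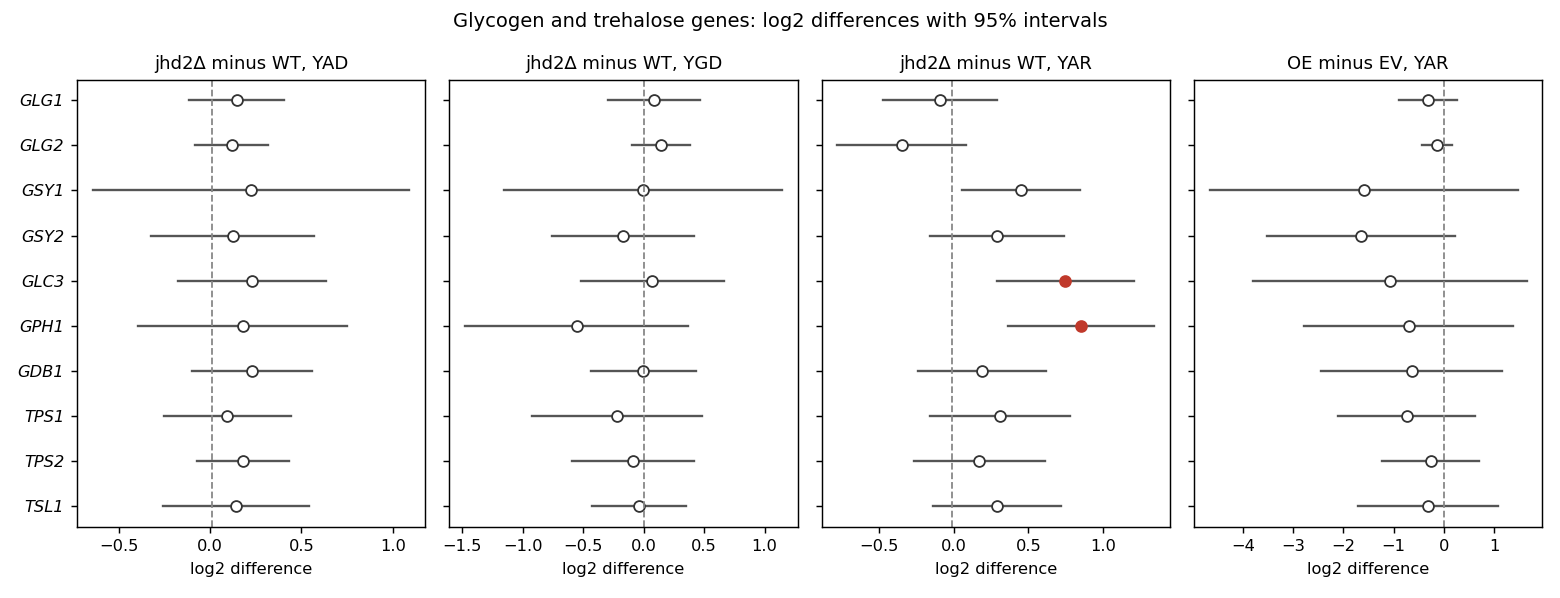
Log2 differences (OE minus EV, or *jhd2∆* minus WT) of the 10 genes, with 95% intervals from limma, filled where called, and the median of all features as a dashed line; each panel has its own axis. Intervals are clear of 0 for *GPH1*, *GLC3* and *GSY1* in YAR, where *GSY1* was not called after adjustment, and span 0 for all 10 genes in the other 3 panels.

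Whether the *jhd2∆* effect differed between media was tested as a difference of differences. Between YGD and YAD, 0 of the 10 genes were called by limma, against 0.049% of 6121 features, 0 passed at an unadjusted p of 0.05 (585 features did), and 9 of the 10 lay below 0 where 51.3% of features lay above it, with *GPH1* farthest at -0.73 (95% interval -1.81 to 0.35). Between YAR and YAD, 0 of the 10 were called, against 25.5% of 5702 features (15.4% higher and 10.1% lower). *GPH1* was at 0.67 (95% interval -0.10 to 1.45, limma adjusted p = 0.179), *GLC3* at 0.52 (-0.06 to 1.10, limma adjusted p = 0.166) and *GLG2* at -0.47 (limma adjusted p = 0.102), and *GLG2* was the one that passed at an unadjusted p of 0.05, which 2245 features did. The higher *GPH1* and *GLC3* of *jhd2∆* cells in YAR were therefore not shown to differ from their smaller differences in YAD. Leaving out WT replicate 1 of YAD brought *GPH1* past the threshold at 0.92, and leaving out *jhd2∆* replicate 1 of YAR brought *GLG2* past it at -0.70. Around the 10 genes, *TPS3* (0.75) and *UGP1* (0.55) were called higher and *GAC1* (-0.69) and *GLC8* (-0.79) lower in this contrast (limma adjusted p between 0.00868 and 0.0481). *YAK1*, a kinase gene that opposes growth signalling, was called lower in *jhd2∆* in YAD (log2 difference -1.32, limma adjusted p = 0.0108) and in this contrast was called higher, at 1.15, which a pseudocount of 5 in place of 1 lowered to 0.43 and out of the call. *TPS3* and *UGP1* also lost this call without single libraries, among them WT replicate 2 of YAR (0.63 and 0.42), and *GLC8* without the same library (-0.56). The 2 tables were normalised separately and the WT strain is Mat alpha in YAD and Mat a in YAR, so medium, mating type and table cannot be told apart here.

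Overexpression of *JHD2* in YAR left every one of the 10 genes uncalled by limma, against 0.0158% of 6331 features called (*JHD2* itself), and none passed at an unadjusted p of 0.05, which 901 features did. All 10 fitted differences were below 0, with a median of -0.68 against -0.01 over all features (49.4% of which were above 0), and the sign of 5 of them rested on EV replicate 3. *GSY1* had 5.34, 4.78 and 4.48 FPKM in OE, against 6.38, 4.66 and 100.5 FPKM in EV. *GLC3* had 11.4, 11.5 and 9.45 FPKM in OE, against 9.86, 7.99 and 119 FPKM in EV. Both genes were at similar levels in 5 of the 6 libraries, and EV replicate 3 stood far above them. *GSY2* had 16.1, 13.1 and 11.8 FPKM in OE, against 36.1, 14.5 and 127 FPKM in EV, so that here EV replicate 1 was higher than OE as well. *GPH1* had 25.3, 27.1 and 21.7 FPKM in OE, against 10.7, 35.1 and 130.1 FPKM in EV.

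*TPS1* had 25.0, 24.5 and 20.9 FPKM in OE, against 25.0, 20.9 and 89.5 FPKM in EV, and *TPS2* had 21.2, 24.5 and 15.9 FPKM in OE, against 18.3, 15.3 and 39.4 FPKM in EV. *GDB1* had 14.1, 12.9 and 10.4 FPKM in OE, against 8.26, 11.4 and 60.3 FPKM in EV. For these genes too the first 2 EV libraries lay near OE and EV replicate 3 above it. *TSL1* had 18.1, 18.4 and 15.0 FPKM in OE, against 11.5, 12.5 and 50.7 FPKM in EV, which placed all OE libraries above the first 2 EV libraries. The glycogenin genes stood less far apart. *GLG1* had 11.8, 12.4 and 9.41 FPKM in OE, against 12.3, 10.4 and 16.8 FPKM in EV, so that EV replicate 3 was again the highest library. *GLG2* was at 10.7 to 12.8 FPKM in OE and 11.5 to 12.8 FPKM in EV, with EV replicate 3 the lowest EV library in deposited values and the highest of all 6 at 13.5 after scaling. No gene of the 10 was free of overlap between OE and EV, where 16.6% of features had every OE library above EV and 7.2% below. Without EV replicate 3 the median of the 10 differences was 0.09, and *GLC3* (0.20), *GPH1* (0.27), *GDB1* (0.27), *TPS2* (0.21) and *TSL1* (0.42) changed sign, while *GSY1* was at -0.19, *GSY2* at -0.77, *GLG1* at -0.074, *GLG2* at -0.11 and *TPS1* at -0.022. Without EV replicate 3 and OE replicate 3 the median was 0.14, and in both cases 0 of the 10 genes were called by limma. Dividing by FPKM sums put the median of all features at 0.26, with *GLG2* at 0.12 and *TPS2* at 0.0080.

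EV replicate 3 is described further because so many of the 10 genes stood apart in it; it was singled out after its values were seen, so no test is given. On the log2(scaled FPKM + 1) scale the 10 genes were a median of 2.45 above the mean of EV replicates 1 and 2, where all features had a median of 0. All 10 were above the 5 other libraries in scaled values, where 31.3% of features were, and 9 of the 10 in deposited FPKM, where 18.3% were. *GSY1* was 18.2-fold above the mean FPKM of the other EV libraries, *GLC3* 13.3-fold, *GDB1* 6.15-fold, *GPH1* 5.69-fold and *GSY2* 5.01-fold. The sum of the 10 genes made up 0.0515% of the FPKM of this library, against 0.0104% and 0.0101% in the other EV libraries. Of the 6 genes that supply sugar phosphates, 5 were above all other libraries in deposited FPKM, as 18.3% of all features were. On the log2 scale 4 of the 6 were more than 1 above the other EV libraries, as 8.10% of all features were. *PGM2*, the major phosphoglucomutase, stood at 147 FPKM in EV replicate 3 against 12.1 and 18.4 FPKM in EV replicates 1 and 2, *GLK1*, glucokinase, at 854 against 118 and 114 FPKM, and *UGP1* at 192 against 56.3 and 58.1 FPKM. *HXK2*, a hexokinase gene, lay the other way at 465 against 1704 and 720 FPKM, and *PGM1*, the minor phosphoglucomutase, stood at 34.8 against 34.0 and 21.1 FPKM. The 12 other stress genes were split, with a median of -0.23. Of these, 5 of 12 were above both other EV libraries in deposited FPKM, where 1668 of 6331 features were. *GPD1*, a glycerol synthesis gene, stood at 355 FPKM in EV replicate 3 against 38.1 and 50.4 FPKM, whereas *HSP12* and *HSP26*, 2 small heat shock protein genes, stood at 275 against 567 and 2928 FPKM and at 17.7 against 24.1 and 231 FPKM. *HSP42* and *HSP104*, also heat shock genes, were highest there among the EV libraries, with *HSP42* at 13.3 against 2.75 and 8.85 FPKM and *HSP104* at 47.5 against 15.7 and 42.6 FPKM. The alpha-specific genes had a median of 3.79 and the a-specific genes of -2.93 in the same library on that scale, and the part of mating type in these levels was not tested.

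**Figure D3:**
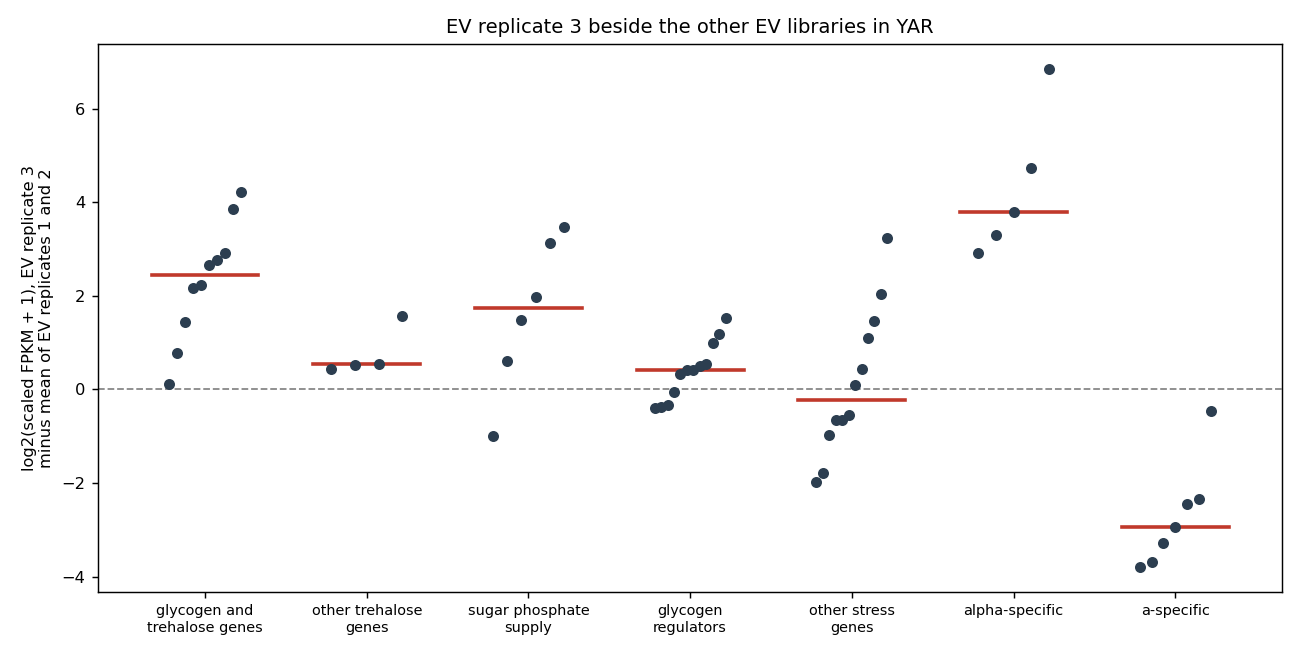
Log2(scaled FPKM + 1) in EV replicate 3 minus the mean of EV replicates 1 and 2, with 1 dot per gene, red lines at list medians and a dashed line at the median of all features. The 10 genes have a median of 2.45, the sugar phosphate genes 1.73, and the other stress genes -0.23.

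The EV cells also gave the only direct comparison of media, with 1 deposited group value per medium and so no test. All 10 genes were lower in YAR than in YAD, but so were most features, whose median log2 ratio was -0.77. Among the 10, the trehalose genes were farthest below that median. *TSL1* had 9.42 FPKM in EV cells in YAR against 91.3 FPKM in YAD, *TPS1* 18.6 against 103 FPKM, and *TPS2* 14.4 against 53.1 FPKM. *TSL1* thus had a ratio in the lowest 0.375% of features, *TPS1* in the lowest 1.61% and *TPS2* in the lowest 5.05%. *TPS3*, outside the 10, went with them, at 14.2 FPKM in YAR against 74.8 FPKM in YAD. Among glycogen genes, *GSY2* had 27.8 FPKM in YAR against 76.7 FPKM in YAD and *GLC3* 16.6 against 31.5 FPKM, while *GSY1* had 12.8 against 13.7 FPKM and *GPH1* 25.6 against 32.9 FPKM. *GSY1* and *GPH1* were 0.66 and 0.41 above the median feature on the log2 scale, and *GLG1*, *GLG2*, *GLC3* and *GDB1* lay between -0.15 and 0.25 of it. A fold past 1.4 lower was seen for 8 of the 10, where 67% of 6140 features had it and 6.6% were past 1.4-fold higher. Relative to the median feature 4 genes were past 1.4-fold lower (*GSY2*, *TPS1*, *TPS2* and *TSL1*) and *GSY1* past 1.4-fold higher. The share of all features past that size was not counted on this scale. By rank of the ratio, *GSY2* was at the 13.4 percentile of features and *GSY1* at the 82.3 percentile. For scale, *MSN4* at -0.49 and the glycogen regulator *PCL10* at 0.52 from the median ranked at the 21.0 and 77.6 percentile. In the replicate columns of the other YAR table EV replicate 3 held most of the EV signal of *GSY1* and *GLC3*, and no source used here says which cultures entered the group value. All 7 a-specific and all 5 alpha-specific genes were also past 1.4-fold lower in YAR, with median log2 ratios of -1.77 and -3.14. The part of mating type in the ratios of the 10 genes was not tested.

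Overexpression in YAD, likewise with 1 value per group and no test, showed 8 of the 10 genes higher in OE. *GSY1* had 18.2 FPKM in OE against 12.03 FPKM in EV, *TPS2* 68.5 against 46.2 FPKM and *TSL1* 111 against 76.5 FPKM, which put these 3 past 1.4-fold, where 1.7% of 6173 features were past it in this direction and 6.33% in the other. *GLC3* (39.1 against 28.4 FPKM) and *GSY2* (93.2 against 68.4 FPKM) were just inside 1.4-fold, and *TPS1* had 107 FPKM in OE against 93.2 FPKM in EV. The glycogenins lay the other way, with *GLG1* at 10.1 FPKM in OE against 12.2 FPKM in EV and *GLG2* at 11.5 against 13.3 FPKM. The median log2 ratio of the 10 genes was 0.37, against -0.12 over all features. Both EV and OE values in YAD held a-specific and alpha-specific RNA (*MF(ALPHA)1* at 440 FPKM in OE and 820 FPKM in EV), and 6 of the 7 a-specific genes and all 5 alpha-specific genes were past 1.4-fold lower in OE. EV cells in YAD serve in both comparisons of single group values, and EV cells in YAR in the media comparison and in overexpression in YAR, so that these share controls and are not independent.

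**Figure D4:**
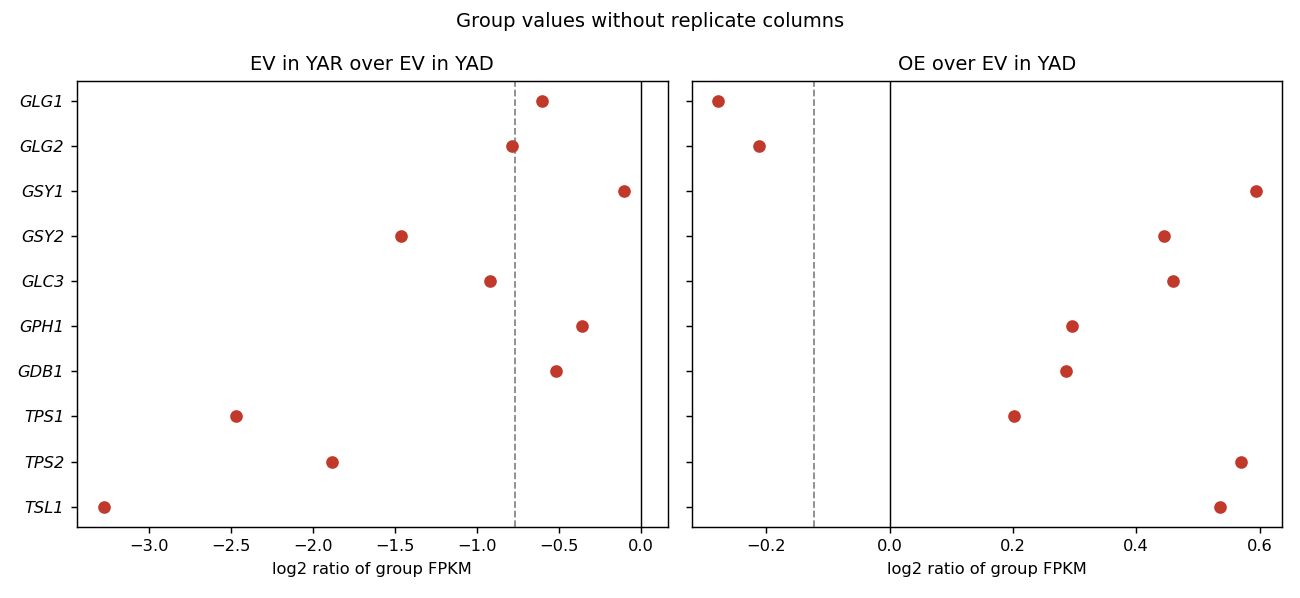
Log2 ratios of deposited group FPKM values for the 10 genes, with EV in YAR over EV in YAD on the left and OE over EV in YAD on the right, a solid line at 0 and a dashed line at the median of all features. *TSL1*, *TPS1* and *TPS2* lie farthest below the dashed line on the left, and *GLG1* and *GLG2* are the only points below it on the right. Each point rests on 1 value per group.

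Ratios between genes within a library do not depend on how a library was scaled, and they describe how the isoforms were balanced. They do depend on the gene lengths used for FPKM. For *jhd2∆* and WT in YAR, 88.9% of features found in the reference had the same coordinates. Differences in ratio between those libraries and the others therefore cannot be told apart from differences in gene length. The major synthase gene exceeded the minor one in all 22 libraries, with *GSY2* over *GSY1* at 5.48 to 10.4 in *jhd2∆* and 6.98 to 9.72 in WT in YAD, 2.62 to 4.18 in *jhd2∆* and 2.39 to 4.61 in WT in YGD, and 3.54 and 3.08 in *jhd2∆* against 3.80 and 3.60 in WT in YAR. In the overexpression table it was 2.63 to 3.02 in OE, against 5.66, 3.11 and 1.26 in EV, the lowest value of all being that of EV replicate 3. *GLG1* over *GLG2* was under 1 in all 12 libraries of YAD and YGD (0.56 to 0.89 in *jhd2∆* and 0.72 to 0.87 in WT). In YAR it was 2.95 and 4.96 in *jhd2∆* and 2.89 and 3.45 in WT. In OE and EV cells in the same medium it was 0.88 to 0.96 in OE and 0.85 to 1.46 in EV. *GPH1* over *GSY2*, that is phosphorylase over synthase, was 1.97 and 1.59 in *jhd2∆* against 1.21 and 1.19 in WT in YAR, without overlap. *GPH1* was itself called there, so this ratio is not a separate result. The share of gene pairs without overlap was not counted. Among single features 31.9% had every *jhd2∆* library above WT in YAR and 32.3% below. In YAD the ratio was 0.54 to 0.55 in *jhd2∆* and 0.44 to 0.72 in WT, and in YGD 0.68 to 0.81 in *jhd2∆* and 0.67 to 1.19 in WT. In the overexpression table it was 1.57 to 2.06 in OE, against 0.30, 2.42 and 1.03 in EV replicates 1 to 3. With 2 libraries per group in YAR an exact permutation test cannot pass a threshold of 0.05, and none was run.

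The place of the 10 genes within their libraries differed between the 2 kinds of YAR culture. The sum of the 10 made up 0.391% and 0.476% of FPKM in *jhd2∆* and 0.384% and 0.402% in WT in YAR, but 0.0103% to 0.0123% in OE and 0.0101% to 0.0515% in EV in the same medium. The median rank of the 10 genes was the 90.9 and 92.7 percentile of features in *jhd2∆* and the 92.2 and 92.7 percentile in WT, against the 38.4 to 43.7 percentile in OE and the 40.7 to 83.5 percentile in EV, where the highest was again EV replicate 3. In YAD the median rank was the 69.5 to 75.2 percentile in *jhd2∆* and the 66.0 to 72.2 percentile in WT. The plasmid strains differ from the others in mating type label, vector and marker, and the 2 tables were made separately, so these cannot be told apart.

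Across the 22 libraries, with each gene centred on its own table, most of the 10 genes followed one another. The correlation of a gene with the mean of the other 9 was 0.98 for *TPS1*, 0.98 for *GLC3*, 0.97 for *GSY1* and 0.96 for *GDB1*, and lowest for *GLG2* at 0.29 and *GLG1* at 0.75. Without EV replicate 3 the values were 0.94, 0.90, 0.91 and 0.85 for the first 4, and 0.16 for *GLG2* and 0.43 for *GLG1*. Among 3223 other features with a mean of at least 10 FPKM in each table, the 5 most like the mean of the 10 were *PIC2*, a mitochondrial phosphate and copper carrier (r = 0.98), *GLK1* (r = 0.98), *GPD1* (r = 0.96), *PGM2* (r = 0.95) and *WTM1* (r = 0.95). Their correlations without EV replicate 3 were 0.94, 0.92, 0.84, 0.87 and 0.85. These are descriptions over libraries that share depth and table, and they carry no test.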

How the data were processed

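RNA was taken from cultures grown to an OD600 of 0.5, depleted of rRNA and sequenced as 51 base single-end stranded libraries. The authors aligned reads with TopHat2 2.0.12 and Bowtie2 2.1.0 and deposited FPKM values from Cufflinks and Cuffdiff 2.1.1, 1 table per comparison and each normalised separately. Their fold change, p and q columns were not used, nor were 6 replicate columns headed as overexpression in YAD, because all 7041 features in them repeat the YAR columns. The 22 replicate columns that were used give no read counts, so depth is unknown and no counting interval is given.

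Each library was scaled by its median ratio to the geometric mean of its table, features with a mean of at least 1 FPKM were kept, and log2(scaled FPKM + 1) was fitted with limma 3.58.1 (trend and robust options, R 4.3.3). Fold changes on this scale understate those of low genes. Calls needed a Benjamini-Hochberg adjusted p under 0.05 over all features and a fold over 1.4. Differences between media were fitted as 1 model over both tables. Deposited group values without replicates were described by fold, with no test. P-values measure the spread between replicate cultures. The fit was also run on simulated data with independent noise for each feature. Those data held no shift shared across a library, so they do not bear on libraries that stand apart, such as EV replicate 3. Python 3.11.15, numpy 2.4.6, pandas 2.3.3 and matplotlib 3.10.9 were used for the rest.

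The 10 genes were named in every comparison, genes of the lists (further trehalose genes, sugar phosphate supply, glycogen regulators, stress and carbon regulators, other stress genes, mating-type markers) were named where called or where they complete a role, and the 5 features most like the mean of the 10 were named by Pearson correlation. The 10 genes and the lists were chosen with earlier results of these data known. Member coordinates given with the YAD values equal those of the R64 reference, and those given with the other values were not compared gene by gene. Of features found in the reference, 99.8% had the same coordinates in YAD, in YGD and in overexpression in YAR. For *jhd2∆* and WT in YAR the share was 88.9%, so gene lengths may differ between that table and the others. Alternatives were the pseudocount, no filter, FPKM as deposited, quantile normalization, limma without trend and robust options, the replicate number as a block and leaving out each library. Scaling to the FPKM sum and leaving out EV and OE replicate 3 together were added after seeing the data.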

Additional observations from a re-analysis of the deposited data

How the results depend on the processing

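None of the 10 genes was called in YAD, YGD, overexpression in YAR or the YGD against YAD contrast under any alternative run. In YAR 2 were called, and 0 with quantile normalization, 0 without the trend and robust options, 0 with the replicate block (adjusted p = 0.0906 for *GPH1* and 0.0968 for *GLC3* by limma), 1 (*GLG2*) when scaled to FPKM sums, and 0 to 2 when single libraries were left out. Replicate numbers did not pair the samples (correlations of same-numbered deviations between -0.105 and 0.162), and the block changed no other call among the 10 genes. In YAD each *jhd2∆* library correlated best with the WT library of its own number, which is a hint from the data and not the design. Outside the 10 genes, *TPS3* and *UGP1* lost their calls in YAR with no filter, with quantile normalization and with FPKM sums, and these and *GAC1* and *GLC8* lost theirs without the trend and robust options and with the block. The contrast of YAR with YAD had 1 call (*GLG2*) with FPKM sums and 0 to 1 with single libraries left out. The count of all features called moved to 204 in YAD with a pseudocount of 5 and to 184 with the block, to 13 in YGD with the block, to 415, 187 and 2108 in YAR without the trend and robust options, with the block and with FPKM sums, and over omissions it ranged from 145 to 374 in YAD, 12 to 38 in YGD, 41 to 1174 in YAR and 2 to 222 for overexpression in YAR, with 222 without EV replicate 2. The YGD against YAD contrast had 1 call over all features as deposited and with FPKM sums, and omissions gave 868 to 1673 in the YAR against YAD contrast. Quantile normalization split the calls in YAR into 521 higher and 516 lower. In YAD the split was 101 higher and 251 lower, against 60 and 295 as deposited and 56 and 320 with FPKM sums.

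Signs changed as follows, and the cause was not tested. In YGD the deposited FPKM, which put the median of all features at 0.20, gave *GSY1* 0.21, *GSY2* 0.055, *GDB1* 0.21, *TPS1* 0.0099, *TPS2* 0.14 and *TSL1* 0.18, and FPKM sums, which put it at 0.11, gave *GSY1* 0.11, *GDB1* 0.12, *TPS2* 0.034 and *TSL1* 0.084. In YAR quantile normalization gave *GSY2* -0.21, *GDB1* -0.19, *TPS1* -0.22, *TPS2* -0.038 and *TSL1* -0.034, and FPKM sums gave *GSY2* -0.062, *GDB1* -0.16, *TPS1* -0.043, *TPS2* -0.18 and *TSL1* -0.060. For overexpression in YAR, FPKM sums gave *GLG2* 0.12 and *TPS2* 0.0080. Relative to the median feature, 5 genes were past 1.4-fold in each comparison of single group values, with *GLG1* at 0.16 and *GDB1* at 0.25 for EV in YAR against YAD. The share of all features past that size was not counted on this scale. For EV in YAR against YAD, *MSN4* at -0.49 and *PCL10* at 0.52 from the median ranked at the 21.0 and 77.6 percentile of features. For OE against EV in YAD, *STE2* at -0.51 and *HSP12* at 0.46 ranked at the 3.09 and 97.0 percentile. The same count of 5 therefore stands against a much larger share of features in the media comparison than in overexpression in YAD.

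Over omissions of single libraries the ranges that crossed 0 were, in YAD, -0.10 to 0.55 for *GSY1*, -0.020 to 0.29 for *GSY2*, -0.063 to 0.36 for *GPH1* and -0.033 to 0.21 for *TPS1*. In YGD they were -0.018 to 0.25 for *GLG1*, -0.30 to 0.53 for *GSY1*, -0.31 to 0.087 for *GSY2*, -0.087 to 0.32 for *GLC3*, -0.095 to 0.18 for *GDB1*, -0.45 to 0.12 for *TPS1*, -0.23 to 0.15 for *TPS2* and -0.19 to 0.077 for *TSL1*. In YAR they were -0.22 to 0.028 for *GLG1* and -0.10 to 0.45 for *TPS2*. For overexpression in YAR they were -1.79 to 0.20 for *GLC3*, -1.58 to 0.27 for *GPH1*, -1.20 to 0.27 for *GDB1*, -0.57 to 0.21 for *TPS2* and -0.70 to 0.42 for *TSL1*, while *GLG1* (-0.51 to -0.074) and *TPS1* (-1.17 to -0.022) stayed below 0. Leaving out EV replicate 3 and OE replicate 3 together gave 0.000219 for *GLG1*, 0.25 for *GLC3*, 0.32 for *GPH1*, 0.35 for *GDB1*, 0.020 for *TPS1*, 0.34 for *TPS2* and 0.48 for *TSL1*. Groups of 2 or 3 libraries and unknown depth limit all of these values.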
